A study of Gallus gallus with 6 samples.

Results

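The beta and gamma crystallin genes CRYBB1, CRYBA4, CRYBB2, CRYBB3, CRYBA1 and CRYGN were examined for differences in DNA methylation between fiber cells and epithelial cells of the chick lens. Whole genome bisulfite sequencing had been performed on fiber cells (3 biological replicates) and epithelial cells (3 biological replicates), each replicate being a dissected pool from 25 lenses. All samples came from the White leghorn strain at embryonic day 13, and no treatment is named. The fiber pools held peripheral and central fibers, and the epithelial pools central and equatorial epithelium. The assay measures, at cytosines followed by guanine (CG), the share of DNA molecules that carry a methyl group (the mCG level). A region was a member when the gene symbol given to it was 1 of these 6 genes, which selected 8 of 7621 differentially methylated regions (DMRs). All 25 DMRs between 7.2 and 7.6 Mb of chromosome 15 were added as the setting of the 4 members on that chromosome, so that 29 DMRs were described in all.

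Beta and gamma crystallins form one family of water-soluble structural proteins that are packed at high concentration in lens fiber cells, where they contribute to transparency and refraction. Fiber cells arise when epithelial cells leave the cell cycle, elongate and accumulate crystallins. Methylation of CG sites in promoters is widely associated with a silent gene, whereas methylation inside gene bodies is common in active genes as well. CRYBB1, CRYBB2 and CRYBB3 encode basic beta crystallins, CRYBA1 and CRYBA4 encode acidic beta crystallins, and CRYGN encodes a gamma crystallin.

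The levels given for each DMR are the authors' means for a cell type, pooled over its replicates. No value of a single replicate and no read coverage of a DMR was used here, so no SD and no coverage can be given. Differences between 2 DMRs therefore cannot be set against an error, although each DMR had been called by the authors for a difference beyond the variance among replicates. The level is a share over all molecules of a dissected pool, so a partial change in every cell and a complete change in part of the cells cannot be told apart.

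Fiber cells had the higher mCG level in 6 of the 8 crystallin DMRs and the lower level in 2. Over all 7621 DMRs, 86.6% were higher and 13.4% were lower in fiber cells. With 8 regions these counts do not set the crystallin genes apart from the rest. Of the genes, 3 had only DMRs with higher levels in fiber cells (CRYBB2, CRYBB3 and CRYBA1) and 3 only DMRs with lower levels (CRYBB1, CRYBA4 and CRYGN). CRYBB1 and CRYBA4 share a single DMR, and the only DMR of CRYBB3 is also a DMR of CRYBB2, so the genes are not separate counts. The matching shares over all genes were not computed, and nothing is read from this split. The 8 DMRs covered 1963 bp in sum. Those of CRYBB3, CRYBB2, CRYBB1 and CRYBA4, all on chromosome 15, overlapped a CpG island (a stretch rich in CG sites) or its shore. The share of all DMRs with an island or shore was not computed, so nothing is read from this overlap. Promoter DMRs of chromosome 2, where CRYGN lies, carried no island or shore annotation. An island at CRYGN may therefore be missing from the annotation. Among the changes toward higher levels the smallest was 11.4 and the largest 26.4 percentage points, where the median of all DMRs of that direction was 21.4 percentage points.

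**Figure D1:**
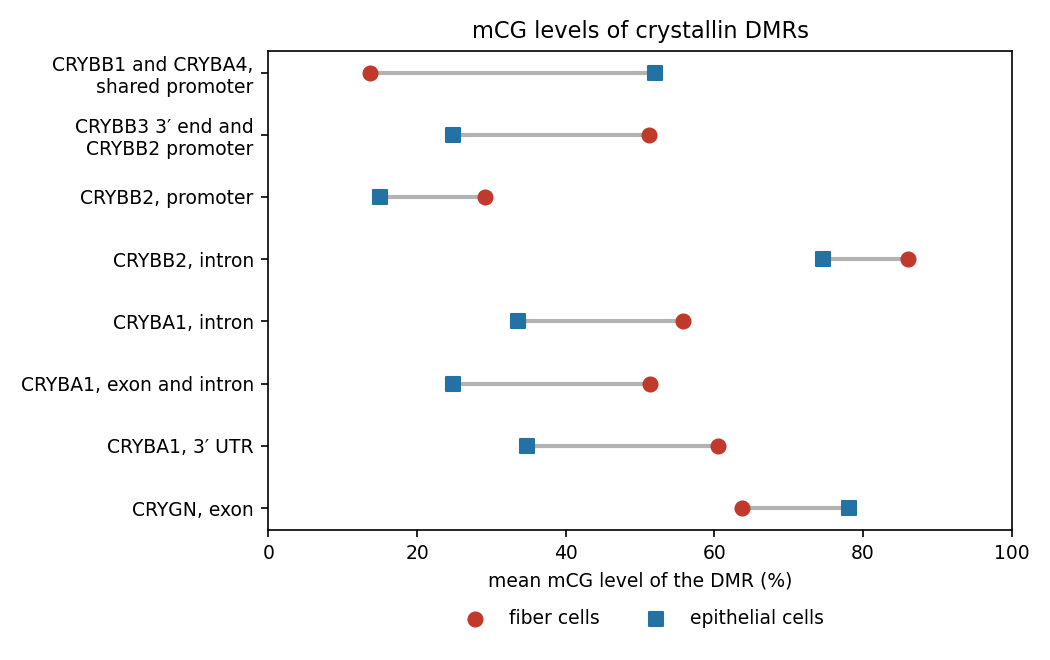
Mean mCG level (%) of the 8 crystallin DMRs, with fiber cells as red circles, epithelial cells as blue squares and a grey line joining both levels of a DMR. The DMR in the shared promoter of CRYBB1 and CRYBA4 has the lowest fiber level, 13.7%, and the widest gap. No error bars are drawn because each point is a mean pooled over replicates.

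Short stretches of sequence show what lies inside these regions. They are matches to transcription factor motifs that the study located within crystallin DMRs, and were chosen because a methylated CG can only lie in the motif where the motif holds a CG. MYC proteins bind the E-box core CACGTG, whose central CG is a known place where methylation lowers their binding. The core bound by SOX proteins, which are known activators of crystallin genes in the chick lens, holds no CG. Capitals mark the motif core, and the sites are given 5′ to 3′ on galGal6.
MYCN match, CRYBB2 promoter, chr15:7284273-7284284, plus strand: cccCACGTGgca
MYCN match, CRYBB2 intron, chr15:7286414-7286425, plus strand: gccCACGTGgca
SOX2 match, CRYBB1 and CRYBA4 promoter, chr15:7467684-7467691, minus strand: cCATTGTg
Both MYCN matches held 1 CG, at the centre of the core, and the SOX2 match held 0. The cores themselves set this difference, so it is not a result about these DMRs. The list of matches was used in part, so other matches in these DMRs were not looked for. The study listed sites of motifs enriched in DMRs with higher levels in fiber cells at epithelial genes. It also listed those enriched in DMRs with lower levels at fiber genes. Which motif appears with which direction of change was shaped by that selection and is not a result. Levels were given per DMR and not per site, and binding was not measured here.

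The DMR shared by CRYBB1 (ENSGALG00000005630) and CRYBA4 (ENSGALG00000005634) had a mean mCG level of 13.7% in fiber cells and 52.0% in epithelial cells. The change was -38.4 percentage points, by which fiber cells had 0.263 times the epithelial level. It lay on chromosome 15 from 7467559 to 7467955 (galGal6), was 397 bp long and comprised 44 listed CG sites. The authors' annotation placed it in the promoters of both genes, in introns of both genes, in an exon and the 5′ UTR of CRYBB1, and on the shore of a CpG island. The SOX2 match printed above began at base 126 of the DMR.

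In fiber cells 4.04% of all 7621 DMRs had a lower level than this region, and in epithelial cells 78.0% had a lower level. Most of all 7621 DMRs changed the other way. Among the 1019 DMRs with lower levels in fiber cells, 218 (the region included) had a fiber level at or below that of the region. By size of the change it ranked 196 among the 1019 DMRs with lower levels in fiber cells, of which the median change was -27.9 percentage points. Among the 1041 promoter DMRs, 13.4% were lower in fiber cells, and the CRYBB1 and CRYBA4 region ranked 18 by size among those 140. Promoter DMRs of that direction had a median level of 19.0% in fiber cells and of 46.8% in epithelial cells. Their median change was -25.0 percentage points, and each median was taken separately.

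Promoters that serve 2 genes were also considered, since a single region then belongs to both. In all, 47 DMRs lay in the promoters of 2 or more protein-coding genes, and 3 of them (6.38%) were lower in fiber cells. The CRYBB1 and CRYBA4 DMR had the largest change of these 3. The others were a region at the promoters of CRCP and TPST1, with a change of -29.2 percentage points, and a region at those of ERGIC2 and LAMB4, with -25.5 percentage points.

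Promoter DMRs with the most similar pair of levels were sought by the distance between both levels, over the 763 other DMRs in the promoter of a gene with a symbol. The nearest belonged to CAMK2D, at a distance of 5.14 percentage points, with 17.2% in fiber cells and 48.3% in epithelial cells. It was followed by SLC41A1 at 5.28, ELAVL4 at 5.44, SCNN1B at 5.47 and MRPL1 at 6.21 percentage points. Likeness over only 2 values is a loose measure, and nothing is read from it beyond the levels.

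**Figure D2:**
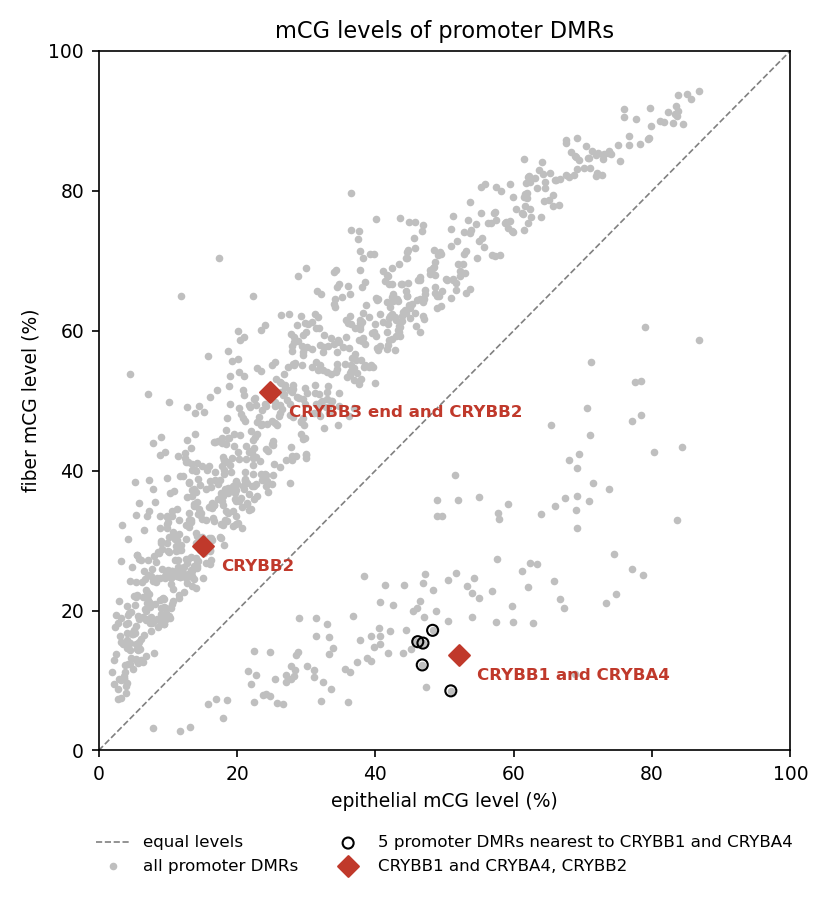
Fiber mCG level (%) against epithelial mCG level (%) of all 1041 promoter DMRs (grey), the crystallin promoter DMRs of CRYBB1 and CRYBA4 and of CRYBB2 (red diamonds) and the 5 promoter DMRs nearest to the CRYBB1 and CRYBA4 region (open circles). The dashed line marks equal levels, and the CRYBB1 and CRYBA4 region lies below it at 13.7% and 52.0%.

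CRYBB2 (ENSGALG00000026086) had 3 DMRs, all with higher levels in fiber cells. The first, from 7282538 to 7283010 on chromosome 15, was in the CRYBB2 promoter and at the same time in an exon, the 3′ UTR and the transcription end of CRYBB3 (ENSGALG00000005515), the gene before it. Its level was 51.2% in fiber cells and 24.8% in epithelial cells, a ratio of 2.06 between the cell types. With 473 bp and 77 listed CG sites it was the longest of the crystallin DMRs, and 97.7% of all DMRs had fewer sites. For CRYBB3 this was the only DMR listed, so the change of that gene, 26.4 percentage points, rests on its 3′ end and not on its promoter.

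The second CRYBB2 DMR, from 7284135 to 7284394, lay in the promoter and on an island shore. It had 29.2% in fiber cells and 15.01% in epithelial cells, a change of 14.2 percentage points, and contained the first E-box above at base 139 of its 260. The third, from 7286395 to 7286512, lay in an intron within a CpG island and contained the second E-box at base 20 of its 118. Its level was high in both cell types, with 86.0% in fiber cells and 74.6% in epithelial cells. The DMRs in the CRYBB2 promoter thus had low or middle levels and the DMR in its intron a high level. The change was upward in each of the 3 DMRs, and levels outside them are not known. The unweighted average change was 17.3 percentage points over all of them, 20.3 in the promoter and 11.4 in the intron.

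A DMR that joins the promoter of 1 gene to the 3′ end of another was not peculiar to this pair. Of 64 such DMRs in the table, 62 (96.9%) had the higher level in fiber cells, and the CRYBB3 and CRYBB2 region ranked 9 by size among those 62.

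CRYBA1 (ENSGALG00000004035) on chromosome 19 had 3 DMRs within 2.81 kb, and their levels were alike. The DMR in an intron, from 6110516 to 6110686, had 55.8% in fiber cells and 33.6% in epithelial cells. The one over an exon and intron, from 6112293 to 6112449, had 51.3% in fiber cells and 24.9% in epithelial cells. The last, from 6113072 to 6113328, reached from an intron over an exon into the 3′ UTR and had 60.4% in fiber cells and 34.7% in epithelial cells. Changes of 22.2, 26.4 and 25.7 percentage points averaged 24.8. Their range was narrower than at CRYBB2, the only other member with more than 1 DMR. None of the 3 overlapped a promoter, an island or a shore. The nearest DMRs outside the gene also had higher levels in fiber cells, at 8683 bp in MYO18A on one side and at 2168 bp on the other.

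CRYGN (ENSGALG00000006189) had a single DMR, in an exon on chromosome 2 from 6328990 to 6329119. Its level was 63.8% in fiber cells and 78.1% in epithelial cells, a change of -14.3 percentage points. This differed from the CRYBB1 and CRYBA4 region in that the DNA stayed mostly methylated, with 0.817 times the epithelial level remaining. The change was small for its direction, since 9.42% of DMRs with lower levels in fiber cells had a smaller one. Exon DMRs were lower in fiber cells in 9.54% of 1961 cases. The region was short, at 130 bp, but dense, with 23.8 listed CG sites per 100 bp, a density above that of 96.2% of all DMRs. Its nearest listed DMRs were 172958 bp and 1003698 bp away, both with higher levels in fiber cells. The usual spacing of DMRs was not computed, so these distances are not called wide or narrow.

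The order of the 8 regions differed between the cell types. In epithelial cells levels ran from 15.01% in the CRYBB2 promoter to 78.1% in CRYGN, and the CRYBB1 and CRYBA4 promoter was the sixth lowest at 52.0%. In fiber cells they ran from 13.7% in that shared promoter to 86.0% in the CRYBB2 intron. Near neighbours in these orders, such as 24.8% and 24.9% in epithelial cells or 51.2% and 51.3% in fiber cells, are not separable without an error. All 8 regions were at or above the middle of all DMRs in CG density, from 10.9 to 25.4 listed sites per 100 bp against a median of 10.3.

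**Figure D3:**
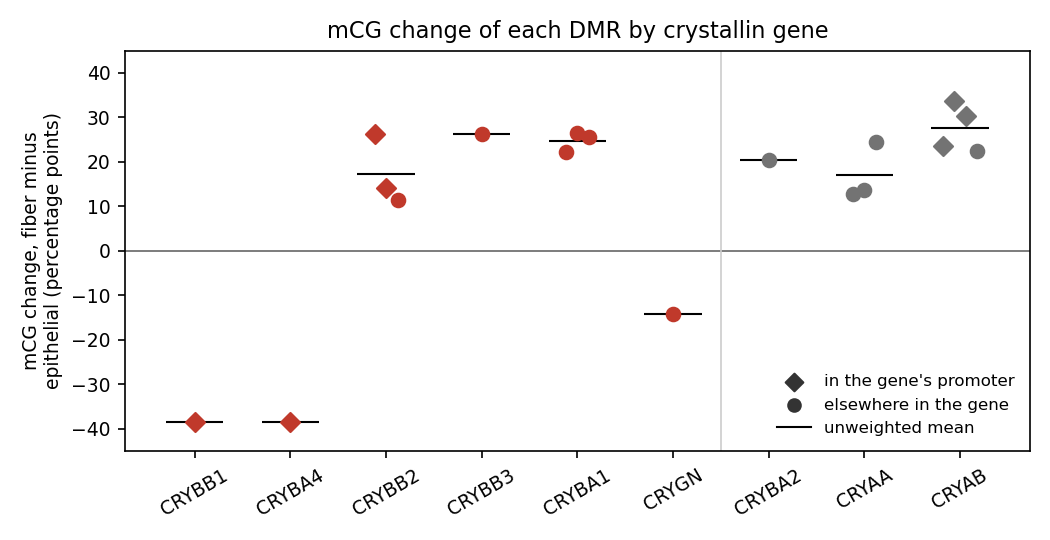
Change in mCG level (fiber minus epithelial, percentage points) of each DMR by gene, with the 6 beta and gamma crystallin genes in red and the crystallins CRYBA2, CRYAA and CRYAB in grey. Diamonds are DMRs in the promoter of the gene, circles are DMRs elsewhere in it, and bars are unweighted means. DMRs that belong to 2 genes are drawn for both, and only CRYBB1, CRYBA4 and CRYGN lie below 0.

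The setting on chromosome 15 was then followed along the chromosome. Of its 25 DMRs, 23 had higher levels in fiber cells and 2 had lower levels, the CRYBB1 and CRYBA4 promoter and an intronic region of SEZ6L. The 2 make up 8%, against 24.7% lower in fiber cells among the 162 other DMRs of chromosome 15 and 13.4% of all DMRs, and the difference was not tested. The first 19 DMRs in genome order all had higher levels in fiber cells. They belonged to SGSM1 (5 DMRs), to CRYBB3 and CRYBB2 (3), to GRK3 (10) and to SEZ6L (1).

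CRYBB3 and CRYBB2 lay within that upward run. Their 3 DMRs spanned 3.98 kb, and the first DMR of GRK3, which encodes a kinase of G protein-coupled receptors, began 4570 bp further on. GRK3 DMRs had changes from 12.7 to 32.6 percentage points, and those of SGSM1 from 12.2 to 33.1. The CRYBB3 and CRYBB2 changes of 11.4 to 26.4 percentage points overlapped both ranges. The median of all DMRs with higher levels in fiber cells, 21.4 percentage points, lies within each range too, so nothing local is read from the overlap. The promoter of GRK3 was also higher in fiber cells, with 36.4% against 17.9% in epithelial cells in 1 DMR and 25.1% against 7.11% in epithelial cells in the other.

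The CRYBB1 and CRYBA4 promoter lay apart from this run. It was 181 kb beyond the last CRYBB2 DMR, and the nearest DMRs were 55628 bp before it and 30210 bp after it. The one before it was the second SEZ6L DMR, which had 43.4% in fiber cells and 65.3% in epithelial cells, a change of -21.9 percentage points. The first SEZ6L DMR, 3550 bp away from it, changed the other way, with 76.2% in fiber cells and 55.9% in epithelial cells. After the shared promoter came 4 DMRs without a gene symbol, all with higher levels in fiber cells and with changes from 14.8 to 29.97 percentage points.

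Gene order was taken from the RefSeq annotation of GRCg7b, another chicken assembly, for names and neighbours only. It places 8 protein-coding genes between CRYBB2 and the CRYBB1 and CRYBA4 pair, of which GRK3 and SEZ6L had DMRs listed. Of 14357 protein-coding RefSeq symbols, 19.4% had a DMR listed, so a gene without one is common. No DMR was listed under MYO18B, ASPHD1, HPS4, SRRD, TFIP11 or TPST2. The last 5 of these separate SEZ6L from CRYBB1, and no DMR of any annotation lay between the second SEZ6L region and the shared crystallin promoter. In the same annotation CRYBA4 lies inside the span of CRYBB1.

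**Figure D4:**
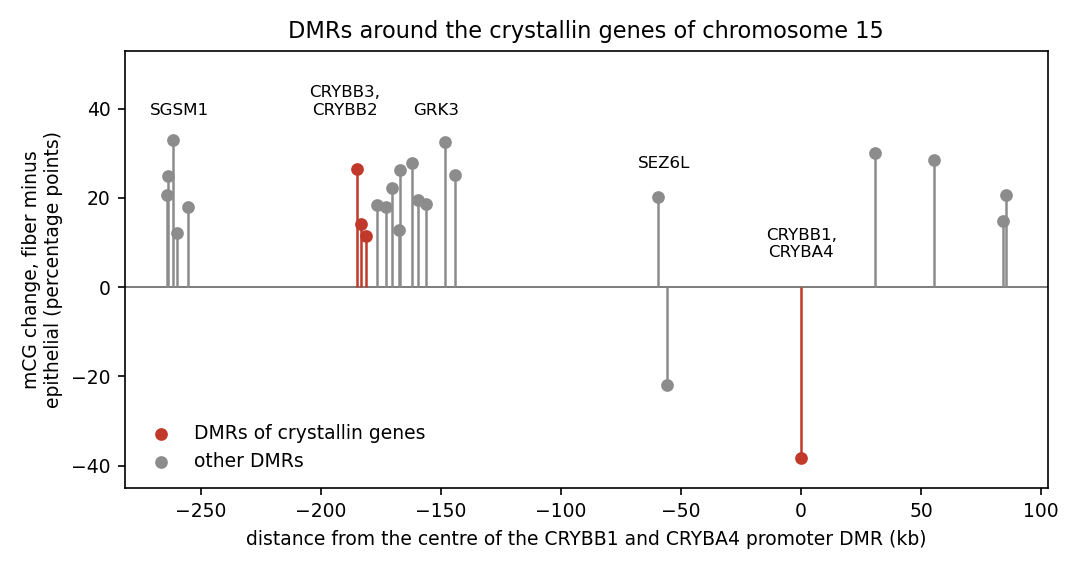
Change in mCG level (fiber minus epithelial, percentage points) of the 25 DMRs between 7.2 and 7.6 Mb of chromosome 15, plotted by distance in kb from the centre of the CRYBB1 and CRYBA4 promoter DMR. Red marks DMRs of crystallin genes and grey all others, and 23 of the 25 rise above 0.

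The limits of this setting were round positions, and values changed direction at both of them. The first DMR inside, in SGSM1, had 77.0% in fiber cells and 56.4% in epithelial cells, whereas the last one before the window, in the promoter of FAM222A, had 7.84% in fiber cells and 24.7% in epithelial cells. The last DMR inside had 50.8% in fiber cells and 30.02% in epithelial cells, and the first after the window had 53.3% in fiber cells and 71.1% in epithelial cells. Of the 8 DMRs from 7.0 to 7.2 Mb, 7 were lower in fiber cells, with changes from -14.1 to -41.9 percentage points. The upward run at CRYBB3 and CRYBB2 thus began after a stretch of the opposite direction.

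Other crystallins, and genes with related names, were compared from a list of 13 genes. DMRs were listed for 3 of them (23.1%), where 19.4% of 14357 protein-coding RefSeq symbols had one, and all 8 DMRs of these genes had higher levels in fiber cells, as did 86.6% of all DMRs. The median change was 23.1 percentage points, against 21.4 over all DMRs with higher levels in fiber cells. CRYBA2, another acidic beta crystallin, had 1 DMR over its 3′ end with 41.7% in fiber cells and 21.3% in epithelial cells. CRYAA, a small heat shock protein of the lens, had 3 DMRs from its 5′ UTR to its 3′ UTR with fiber levels from 15.8% to 35.9% and epithelial levels from 3.01% to 11.3%. CRYAB, its partner in alpha crystallin, had 4 DMRs with changes from 22.6 to 33.8 percentage points, 3 of them in the promoter. The CRYAB regions were also annotated to the neighbour HSPB2. No DMR was listed under the remaining 10 symbols, of which ASL2, CRYBG1 and CRYBG2 are not symbols of the RefSeq table, so a listing under another name is possible for them.

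Transcription factors known to act on crystallin genes had DMRs in 10 of 17 cases, against 19.4% of protein-coding symbols. That share was matched by symbol, so a gene listed under another name or none counts as without a DMR and the share may be too low. Of their 21 DMRs, 7 (33.3%) were lower in fiber cells, where 13.4% of all DMRs were, and the 7 lay at SOX1, SOX2, HSF4 and 1 region of MAF. The SOX2 promoter changed by -8.28 percentage points, and HSF4, which encodes a heat shock factor of fiber cells, changed by -26.4 percentage points in its promoter. PAX6, the main regulator of eye development, had 5 DMRs, all with higher levels in fiber cells. Among 12 genes of the fiber membrane and cytoskeleton, 6 had a DMR. Of their 14 DMRs, 10 (71.4%, against the same 13.4% of all DMRs) were lower in fiber cells. All 10 lay at BFSP1, BFSP2 and SPTBN1, with 5 of them at SPTBN1. The other 3 genes, VIM, CDH2 and DNASE2B, had only DMRs with higher levels in fiber cells, so by gene the list was evenly split. These lists were chosen with results of the same samples known, so the shares are no independent evidence. Of 12 marker genes of pigment cells, retina, vessels and blood, 0 had a DMR, which says nothing about the amount of such cells in the pools.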

How the data were processed

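DNA of microdissected lens fiber cells and epithelial cells was bisulfite treated and sequenced. Per the labels and methods of the study, bases were called with CASAVA, reads trimmed with Trimmomatic and aligned to galGal6 with Bismark, and DMRs called with DSS from 3 replicates of each cell type (versions are not given in the sources used here). Smoothing over neighbouring sites in that step makes nearby sites alike, and selection by a p threshold favours large differences. The authors deposited 1 table of DMRs, with the mean mCG level of each cell type as a fraction, pooled over replicates, beside length, number of CG sites and annotations. Whether that number counts both strands is not given, so it is called listed sites. Columns of the authors' own difference and area statistic were not used. The read coverage behind each level is unknown, and the total reads of each sample were not used here.

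The 13180 lines, of which 551 were exact repeats, were joined to 7621 DMRs. Fractions were multiplied to percent, and changes are fiber levels less epithelial levels, in percentage points. The direction of a DMR is the sign of this change, and the counts by direction differ slightly from those the paper reports. Members were found by the symbols of the table. Promoters lie upstream of a transcription start by the authors' annotation, and gene averages were unweighted over distinct DMRs in promoter or gene body (UTRs, exons and introns). No test was made, since no replicate values were used and the regions had been selected for their difference. Shares over all DMRs stand beside the counts instead. The members and lists were chosen with earlier results of these data known. Genes named are the 6 members, the genes with DMRs from 7.2 to 7.6 Mb of chromosome 15, members of the fixed lists and the 5 nearest promoter DMRs. CRCP, TPST1, ERGIC2, LAMB4, MYO18A, HSPB2 and FAM222A were named after their values were seen, as were MYO18B, ASPHD1, HPS4, SRRD, TFIP11 and TPST2, which have no listed DMR and are named for gene order. Alternatives were a minimum change of 20 percentage points, at least 10 listed CG sites, promoters alone, DMRs of 1 gene alone, lines as deposited, other windows and weighted averages. Joining, counting and averaging were tested on simulated data. Python 3.11.15, pandas 2.3.3, NumPy 2.4.6, statsmodels 0.14.6 and matplotlib 3.10.9 were used.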

Additional observations from a re-analysis of the deposited data

How the results depend on the processing

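Of the crystallin DMRs 75.0% were higher in fiber cells (6 of 8), and the share was 80.0% for changes of at least 20 percentage points (4 of 5 DMRs), 66.7% in promoters (2 of 3), 83.3% for DMRs of 1 gene (5 of 6) and 63.2% over lines as deposited, which count annotations and not regions. A minimum of 10 listed CG sites removed none of the 8 DMRs. With so few regions these shares do not show stability. For the chromosome 15 setting the share higher in fiber cells was 92.0%, and 88.2% in a narrower window ending at 7.5 Mb (15 of 17 DMRs). It moved to 70.3% from 7.0 to 7.8 Mb (26 of 37 DMRs), which takes in the opposite stretch beside it. The average change of CRYBB2 was 17.3 percentage points and moved to 20.2 when weighted by listed CG sites, 20.6 when weighted by length, 12.8 without the DMR shared with CRYBB3 and 20.3 in the promoter alone, always upward. The average of CRYBA1, 24.8 percentage points, moved by less than 1 percentage point when weighted. CRYBB1, CRYBA4, CRYBB3 and CRYGN have 1 DMR each, so weighting cannot change their values. Averages over DMRs of 1 gene could not be computed for CRYBB1, CRYBA4 and CRYBB3, whose only DMR is shared, nor promoter averages for CRYBB3, CRYBA1 and CRYGN. The region of CRYBB1 and CRYBA4 was exceeded in loss by 1.63% of promoter DMRs, and by 1.54% of those with at least 10 listed CG sites. Both shares are taken over promoter DMRs of either direction, most of which were higher in fiber cells. Among the 140 promoter DMRs with lower levels in fiber cells the region ranked 18. No paired analysis was possible because the table holds means over replicates, and no replicate could be left out for the same reason. What coverage limits could not be assessed.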
